A study of Danio rerio with 18 samples.

Results

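Aminoacyl-tRNA synthetases and genes of the amino acid response were followed in regenerating zebrafish heart tissue by RNA-seq on days 0, 6 and 9 after amputation (dpa). They were chosen by symbol from a list of 42, of which 35 were found among the 15268 genes of the expression table. These are 17 synthetases of the cytosol, 8 synthetases of mitochondria and 10 genes of amino acid synthesis and stress. The other 7 symbols (gars, lars, nars, lars2b, aars2, ears2 and mars2) are not analysed here. The fish were of the TAB line, a cross of the AB and Tubingen strains, and the apex of the ventricle was cut away in all of them. Each of the 3 groups (0, 6 and 9 dpa) holds 2 libraries, replicate 1 and replicate 2. The reference is 0 dpa, and no separate group is labelled as uncut heart. The age of the fish, and whether a library came from a single heart or from several, are not given in the sources used here. Values are FPKM, fragments scaled to transcript length and to the mapped fragments of the library, and levels of different genes can therefore be set side by side.

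Synthetases attach each amino acid to its transfer RNA, and most amino acids have a separate nuclear gene for the enzyme of the cytosol and for that of mitochondria. When an amino acid is short, uncharged transfer RNA activates the kinase GCN2, which phosphorylates the initiation factor eIF2alpha, lowers protein synthesis in general and favours translation of the transcription factor ATF4. In mammals ATF4 raises many cytosolic synthetases, the asparagine and serine synthesis enzymes, and stress genes such as ddit3, trib3, chac1 and sesn2.

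The 35 genes covered a wide span of levels. The highest mean over the 6 libraries was that of chac1, 317 FPKM, and the lowest that of phgdh, 0.579 FPKM. Among cytosolic synthetases the mean went from 5.49 FPKM for cars, the cysteine enzyme, to 131 FPKM for kars, the lysine enzyme that serves both compartments in vertebrates. Dars, the aspartate enzyme, was the next highest of them at 66.6 FPKM. Mitochondrial synthetases were lower, from 2.33 FPKM for yars2, the tyrosine enzyme, to 14.0 FPKM for iars2, the isoleucine enzyme. Of the remaining 6 mitochondrial enzymes, none had a mean above the 4.60 FPKM of sars2. In every library the summed level of the 17 cytosolic enzymes, 402 to 533 FPKM, was above the summed level of the 8 mitochondrial enzymes, 31.1 to 41.5 FPKM. The plot of all levels shows this step between the compartments, and in it the 6 libraries of a gene lie close together compared with the full span of levels. They do not compared with neighbouring genes. The mitochondrial enzymes other than iars2 had similar means, and the libraries of wars2 alone went from 2.40 to 5.11 FPKM.

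**Figure D1:**
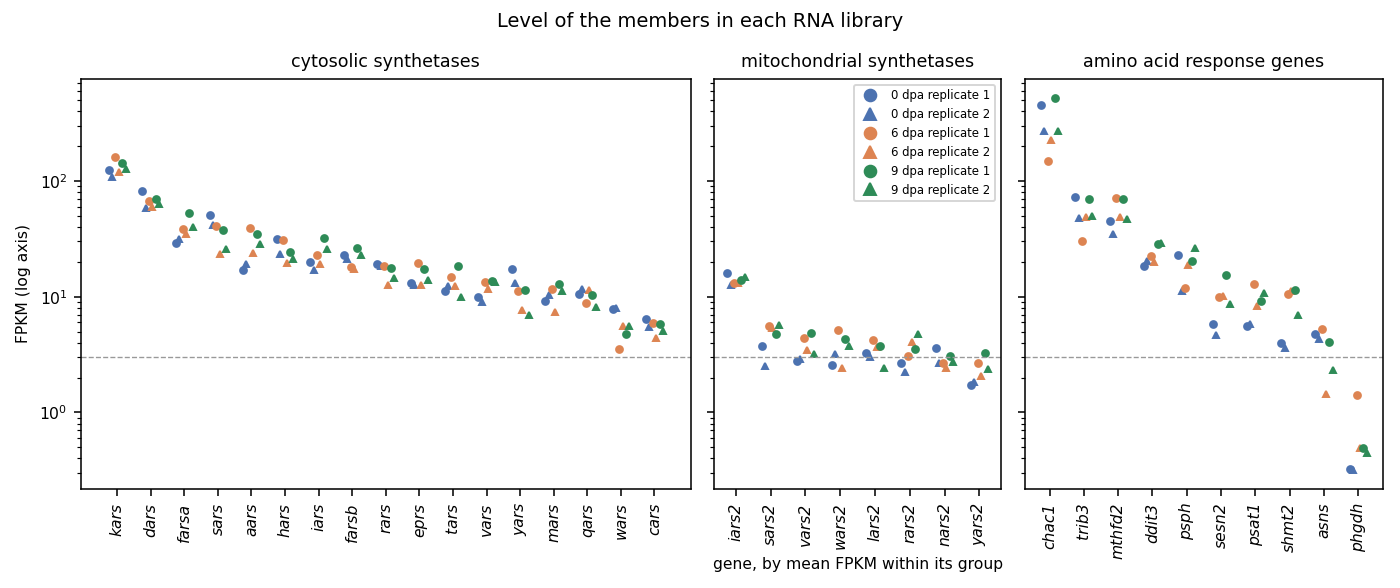
FPKM of each of the 35 genes (log axis) in the 6 RNA libraries, with genes ordered by mean FPKM within their group, colour for the time point, circles for replicate 1 and triangles for replicate 2. The dashed line is the mean FPKM of 3 used as the minimum for testing; yars2 and phgdh stayed under it as means at every time point, and chac1 had the highest mean, 317 FPKM.

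Comparisons were made on log2(FPKM + 1) with limma in a fit of all 6 libraries. A gene counted as changed by the study's 3 criteria, namely P below 0.05, a change of 1.5-fold or more and a mean of at least 3 FPKM in either group. Of the 35 genes, 33 had a mean FPKM of at least 3 at some time point and were fitted. Phgdh, the entry enzyme of serine synthesis, had 0.322 and 0.315 FPKM at 0 dpa, then 1.41 and 0.489 at 6 dpa, then 0.496 and 0.443 at 9 dpa, and was not tested. Yars2 had 1.74 and 1.84 FPKM at 0 dpa, then 2.68 and 2.05 at 6 dpa, then 3.26 and 2.39 at 9 dpa, and was not tested either. The lowest libraries of both genes were those of 0 dpa.

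The members did not move as a block. Between 6 and 0 dpa, 6 of the 33 genes tested met the 3 criteria (18.2%), where 15.4% of all 9275 genes tested did. Of these, 5 rose (aars, sars2, psat1, shmt2 and sesn2; 7.86% of all genes rose) and 1 fell (wars; 7.51% of all genes fell). Between 9 and 0 dpa, 5 of 33 met them (15.2%, against 12.5% of all 9015 genes tested), and these were aars, iars, psat1, shmt2 and sesn2, each of them higher at 9 dpa (6.82% of all genes rose and 5.72% fell). Between 9 and 6 dpa, 1 of 32 did (3.12%, against 3.41% of all 9157 genes), namely chac1, which rose (1.99% of all genes rose and 1.42% fell). For 9 against 0 dpa, the calls of aars, iars, psat1, shmt2 and sesn2 were all lost without 9 dpa replicate 1. Yars was called there instead, as a decrease, with a log2 fold change of -1.03. Without 9 dpa replicate 2 the calls kept for 9 against 0 dpa were those of sesn2 and shmt2. The comparisons with 0 dpa use the same 0 dpa libraries, so a gene called in both is not called on separate evidence. With a Benjamini-Hochberg adjusted p-value in place of P, limma called 0 of the members in each comparison, against 0.712%, 0.366% and 0.0328% of all genes, while 6, 5 and 1 of the members had an unadjusted P value under 0.05, against 15.5%, 12.8% and 3.49% of all genes. The split of calls between 6 and 0 dpa depended on how libraries were scaled, with 5 higher and 3 lower under median-ratio scaling and 7 higher and 0 lower when haemoglobin genes were removed and the libraries rescaled. At 9 dpa these were 6 higher and 1 lower, and 10 higher and 0 lower. Under median-ratio scaling 17.6% of all genes tested met the criteria at 6 dpa and 13.8% at 9 dpa. Under the rescaling without haemoglobin genes 21.9% met them at 6 dpa and 15.2% at 9 dpa, with 32 members tested. The summed FPKM of a library was unequal, lowest in 6 dpa replicate 2 (803421) and highest in 0 dpa replicate 1 (1330110). With haemoglobin genes removed, the sums of these libraries were still 767746 and 1184480. The rescaling therefore also evened out the sums. The part of the unequal sums and that of the haemoglobin genes in its shift were not tested.

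Non-overlap of the 2 libraries of each time point was counted as well. Between 6 and 0 dpa 16 of 33 members did not overlap, 11 of them higher and 5 lower at 6 dpa, where 45.7% of all genes did not (22.9% higher and 22.8% lower). Between 9 and 0 dpa 22 of 33 did not overlap, 16 higher and 6 lower, against 41.1% of all genes (20.2% higher and 20.9% lower). Between 9 and 6 dpa 9 of 32 did not, all 9 higher at 9 dpa, against 36.5% of all genes (18.4% higher and 18.1% lower). The median log2 fold change of the members was 0.12 between 6 and 0 dpa, 0.21 between 9 and 0 dpa and 0.07 between 9 and 6 dpa. Over all genes tested these medians were -0.0028, -0.03 and -0.01.

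**Figure D2:**
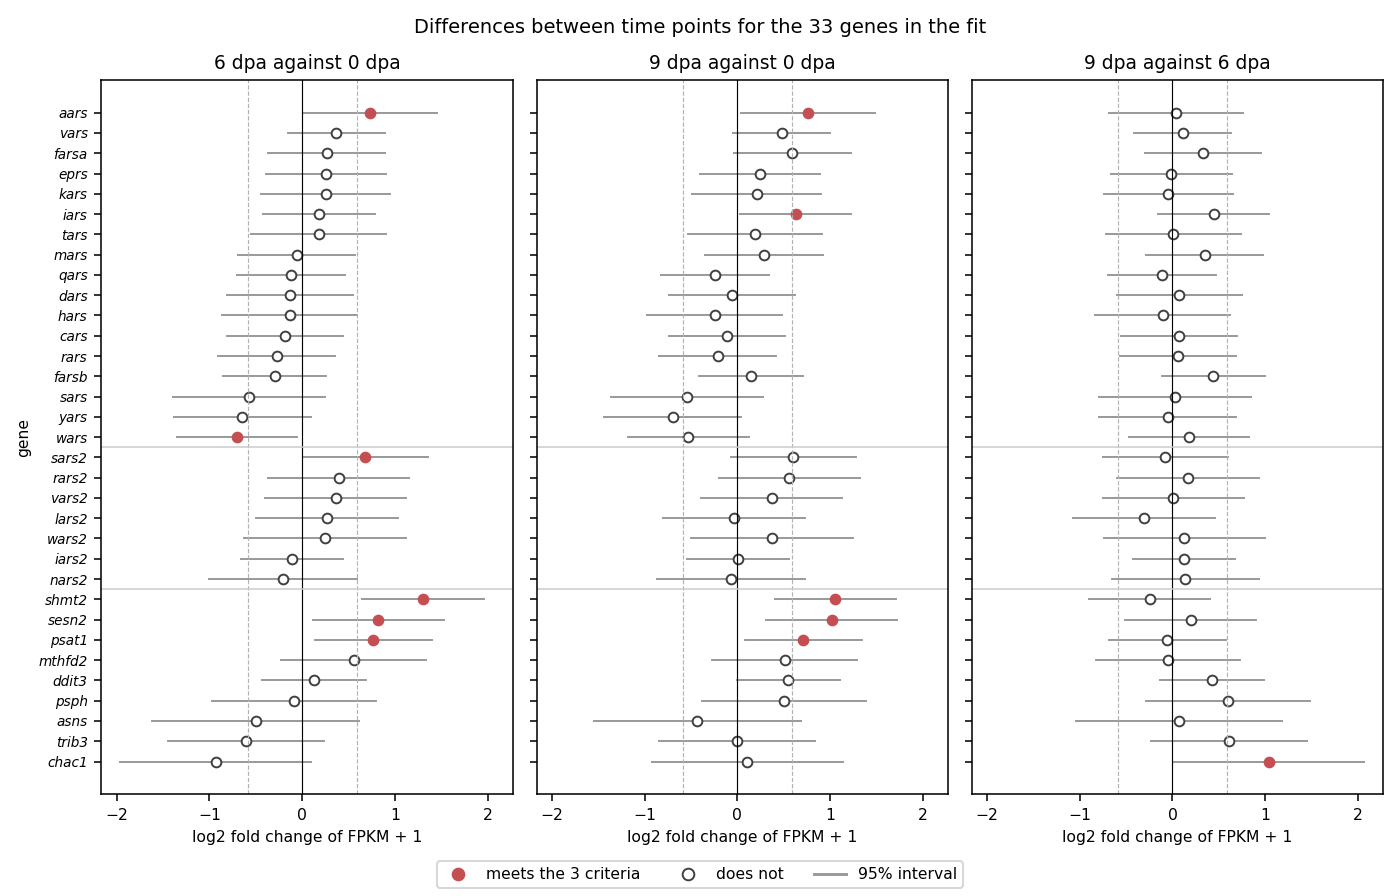
Log2 fold change of FPKM + 1 with its 95% limma interval for the 33 genes in the fit, in 3 comparisons, with cytosolic synthetases at the top, mitochondrial synthetases in the middle and amino acid response genes below. Filled points meet the 3 criteria (6, 5 and 1 genes) and dashed lines mark 1.5-fold; shmt2 has the largest increase from 0 dpa in both comparisons, 1.3 and 1.06.

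The clearest member was shmt2, the mitochondrial serine hydroxymethyltransferase, which turns serine into glycine and feeds the one-carbon pool. It had 3.95 and 3.63 FPKM at 0 dpa, then 10.5 and 11.1 at 6 dpa, then 11.4 and 6.96 at 9 dpa. All 4 later libraries lay above both libraries of 0 dpa, and 9 dpa replicate 2 was the lowest of the 4. Its mean was 2.85 times the 0 dpa mean at 6 dpa and 2.43 times at 9 dpa. Expressed as log2 fold changes these were 1.3 (SE 0.28, limma adjusted p = 0.0885, from 0.0524 to 0.36 over 14 other settings) and 1.06 (SE 0.28, adjusted p = 0.206). The call at 6 dpa was kept in all 14 settings, with values from 1.25 to 1.35 when any library was left out. The call at 9 dpa was lost without 9 dpa replicate 1, where the log2 fold change was 0.73.

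Psat1, the aminotransferase of serine synthesis, had 5.54 and 5.85 FPKM at 0 dpa, then 12.9 and 8.31 at 6 dpa, then 9.10 and 10.9 at 9 dpa. The 0 dpa libraries were close together and below the other 4. Its mean rose 1.86-fold by 6 dpa (log2 fold change 0.77, SE 0.27, limma adjusted p = 0.246) and 1.75-fold by 9 dpa (0.71, adjusted p = 0.348). Without 6 dpa replicate 1 the value at 6 dpa was 0.48 and without 0 dpa replicate 1 it was 0.73, and neither met the criteria. At 9 dpa the call was lost without 0 dpa replicate 1 (0.68), 0 dpa replicate 2 (0.74), 9 dpa replicate 1 (0.83) or 9 dpa replicate 2 (0.59).

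Among the members, mthfd2 and psph did not pass. Mthfd2, the mitochondrial folate dehydrogenase that follows shmt2, had 45.3 and 35.0 FPKM at 0 dpa, then 71.2 and 48.9 at 6 dpa, then 69.7 and 46.8 at 9 dpa. Expressed as log2 fold changes these were 0.56 (95% interval -0.22 to 1.33, limma adjusted p = 0.476) and 0.51 (-0.27 to 1.29, adjusted p = 0.597), and its 4 later libraries were above those of 0 dpa. Psph, the phosphatase that completes serine synthesis, had 22.7 and 11.2 FPKM at 0 dpa, then 11.9 and 18.9 at 6 dpa, then 20.4 and 26.4 at 9 dpa. Its libraries of 0 dpa overlapped with those of both later times, and those of 9 and 6 dpa did not overlap (log2 fold change 0.59, adjusted p = 1).

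Sesn2, sestrin 2, a leucine sensor that restrains mTORC1 and an ATF4 target in mammals, had 5.82 and 4.66 FPKM at 0 dpa, then 9.87 and 10.1 at 6 dpa, then 15.5 and 8.60 at 9 dpa. The groups did not overlap with 0 dpa, and the highest value came from 9 dpa replicate 1. The mean was 1.90 times that of 0 dpa at 6 dpa (log2 fold change 0.82, SE 0.30, limma adjusted p = 0.26) and 2.30 times at 9 dpa (1.02, adjusted p = 0.257). The call at 6 dpa was lost without 0 dpa replicate 2 (0.68), 6 dpa replicate 1 (0.83) or 6 dpa replicate 2 (0.81), and the call at 9 dpa without 9 dpa replicate 1 (0.63).

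Chac1, a glutathione-degrading enzyme and a stress target of the ATF4 pathway in mammals, had the highest level of all members. It had 458 and 269 FPKM at 0 dpa, then 148 and 228 at 6 dpa, then 527 and 271 at 9 dpa. Both libraries of 6 dpa were below all others, but replicate 2 of 0 and of 9 dpa stood only a little above 6 dpa replicate 2. Between 9 and 6 dpa the mean rose 2.12-fold (log2 fold change 1.04, SE 0.44, limma adjusted p = 1), and between 6 and 0 dpa the log2 fold change was -0.93 (adjusted p = 0.37). Without 0 dpa replicate 2 the latter was -1.31 and met the criteria. The call between 9 and 6 dpa was lost without 6 dpa replicate 1 (0.73) or 9 dpa replicate 1 (0.56) and, with all libraries, under the replicate block and without the FPKM filter.

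Trib3, a pseudokinase that dampens ATF4 signalling, had 72.8 and 48.1 FPKM at 0 dpa, then 30.3 and 48.7 at 6 dpa, then 70.0 and 50.0 at 9 dpa. As for chac1, 6 dpa replicate 1 was the lowest library, and replicate 1 of 0 and of 9 dpa were the highest. Its log2 fold change was -0.61 between 6 and 0 dpa (limma adjusted p = 0.469) and 0.61 between 9 and 6 dpa (adjusted p = 1).

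Ddit3, the transcription factor CHOP, had 18.3 and 20.4 FPKM at 0 dpa, then 22.4 and 19.9 at 6 dpa, then 28.6 and 28.9 at 9 dpa. The 9 dpa libraries were nearly equal and above the other 4. The log2 fold change between 9 and 0 dpa was 0.55 (95% interval -0.01 to 1.11, limma adjusted p = 0.412) and did not reach 1.5-fold. Asns, asparagine synthetase, a commonly used target gene of the amino acid response in mammals, had 4.75 and 4.32 FPKM at 0 dpa, then 5.22 and 1.45 at 6 dpa, then 4.05 and 2.33 at 9 dpa. Its highest and its lowest value were both in libraries of 6 dpa, and its log2 fold change from 0 dpa was -0.50 at 6 dpa (95% interval -1.62 to 0.61, limma adjusted p = 0.658) and -0.43 at 9 dpa (-1.55 to 0.68, adjusted p = 0.781). Without 6 dpa replicate 2 the value at 6 dpa was 0.17, so its sign rested on that library, and without 6 dpa replicate 1 it was -1.17 and met the criteria.

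**Figure D3:**
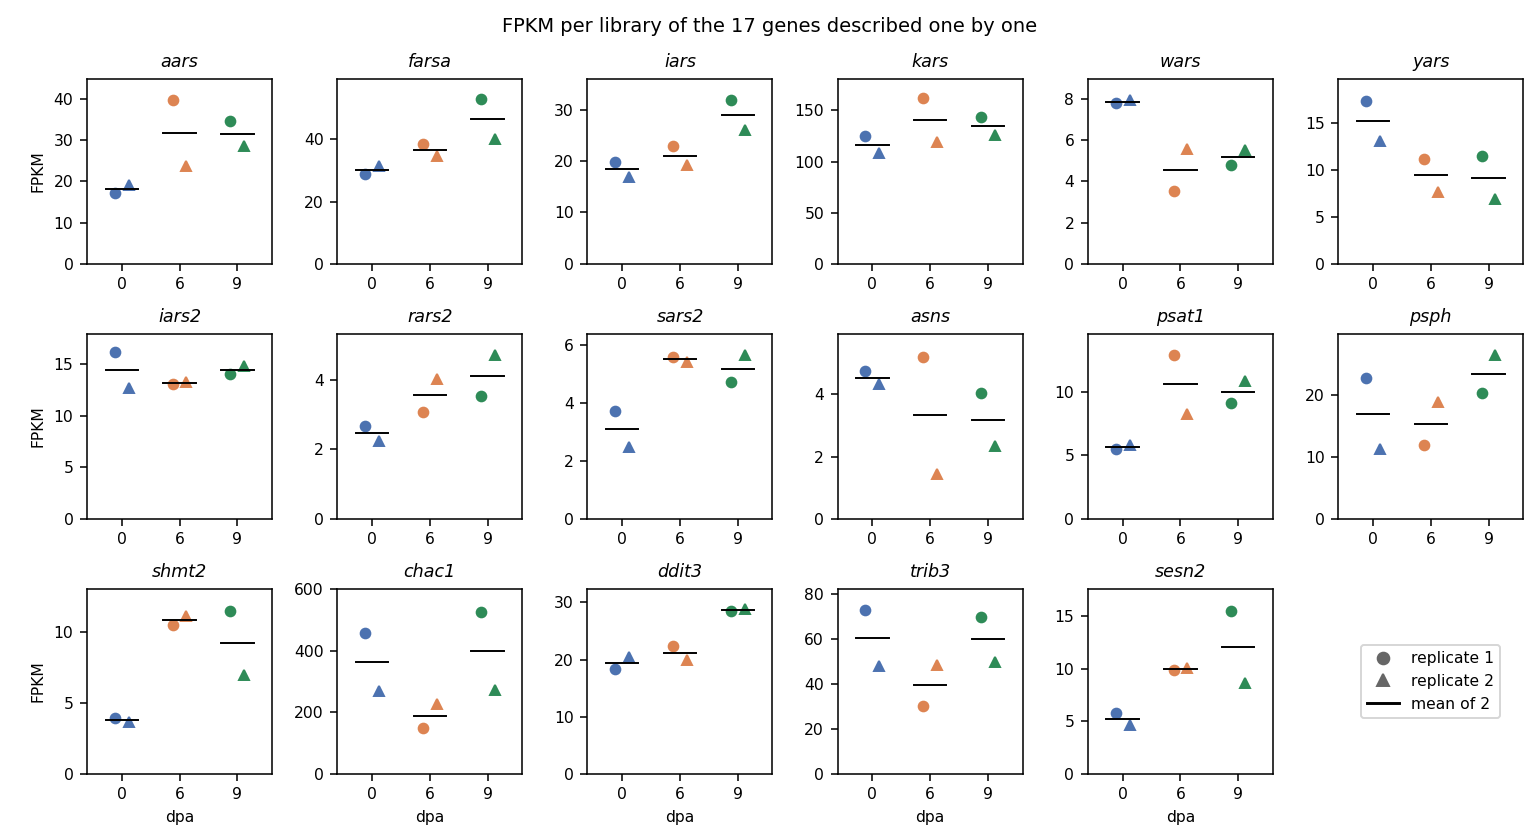
FPKM in each library (circles, replicate 1; triangles, replicate 2) at 0, 6 and 9 dpa for the 17 genes that were named by rule, with the mean of 2 as a line and each axis starting at 0. Shmt2, psat1, sesn2, aars, farsa, sars2 and rars2 have both libraries of 6 and of 9 dpa above those of 0 dpa. Wars and yars have them below, and chac1 is lowest at 6 dpa.

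Among the 17 cytosolic synthetases, 1 rose (aars) and 1 fell (wars) between 6 and 0 dpa, where 7.86% of all genes rose and 7.51% fell. Between 9 and 0 dpa 2 of the 17 rose (aars and iars), where 6.82% of all genes did. The median log2 fold changes of the 17 were -0.12, 0.15 and 0.06 in the 3 comparisons. The first became 0.20 when the libraries were rescaled without haemoglobin genes, which moved the median of all genes to 0.31. Aars, the alanine enzyme, had 17.2 and 19.1 FPKM at 0 dpa, then 39.6 and 23.7 at 6 dpa, then 34.6 and 28.5 at 9 dpa. Its later libraries were all above 0 dpa, with 6 dpa replicate 1 the highest. The mean was 1.74 times that of 0 dpa at each later time (log2 fold changes 0.73 and 0.76, SE 0.31, limma adjusted p = 0.321 and 0.376). At 6 dpa the call was kept without 6 dpa replicate 2 (1.09) and lost without any of the other 5 libraries, with the lowest value, 0.37, without 6 dpa replicate 1. At 9 dpa it was lost without 0 dpa replicate 1 (0.69), 0 dpa replicate 2 (0.83), 9 dpa replicate 1 (0.62) or 9 dpa replicate 2 (0.90).

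Iars, the isoleucine enzyme, had 19.8 and 16.9 FPKM at 0 dpa, then 22.9 and 19.2 at 6 dpa, then 31.9 and 26.0 at 9 dpa. Both libraries of 9 dpa were above the other 4, whereas 0 and 6 dpa overlapped. Between 9 and 0 dpa the mean rose 1.58-fold (log2 fold change 0.63, SE 0.26, limma adjusted p = 0.383), a call that was kept only without 0 dpa replicate 1 among the 6 libraries left out in turn (0.48 to 0.77). Farsa, the catalytic subunit of the phenylalanine enzyme, had 29.0 and 31.4 FPKM at 0 dpa, then 38.4 and 34.6 at 6 dpa, then 52.9 and 40.2 at 9 dpa. Its groups did not overlap with each other, but the log2 fold change of 0.59 between 9 and 0 dpa did not meet the criteria (limma adjusted p = 0.432). Farsb, the other subunit, had 22.8 and 21.3, then 18.1 and 17.4, then 26.3 and 22.8 FPKM at these times. Its log2 fold change between 6 and 0 dpa was -0.29 and went from -0.34 to 0.02 over the 14 other settings.

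Wars, the tryptophan enzyme, had 7.80 and 7.93 FPKM at 0 dpa, then 3.52 and 5.54 at 6 dpa, then 4.79 and 5.53 at 9 dpa. The 0 dpa libraries were above the other 4. The mean at 6 dpa was 1.73-fold below 0 dpa (log2 fold change -0.70, SE 0.28, limma adjusted p = 0.288), and at 9 dpa the log2 fold change was -0.53 (adjusted p = 0.509). The call at 6 dpa was kept without 6 dpa replicate 2 (-0.97) and lost without any of the other 5 libraries, with a value of -0.44 without 6 dpa replicate 1. With haemoglobin genes removed and the libraries rescaled, it was -0.42 and not called.

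Yars, the tyrosine enzyme, had 17.4 and 13.1 FPKM at 0 dpa, then 11.1 and 7.70 at 6 dpa, then 11.5 and 6.90 at 9 dpa. Replicate 1 was the higher library at every time, and the 0 dpa libraries were above the other 4. Its log2 fold changes from 0 dpa were -0.65 and -0.70 (limma adjusted p = 0.382 and 0.432). Sars, the serine enzyme, had 50.9 and 41.6 FPKM at 0 dpa, then 40.5 and 23.2 at 6 dpa, then 38.0 and 25.7 at 9 dpa, giving log2 fold changes of -0.57 and -0.54 (adjusted p = 0.484 and 0.592). Kars, the highest of the synthetases, had 125 and 108 FPKM at 0 dpa, then 162 and 119 at 6 dpa, then 144 and 126 at 9 dpa, giving log2 fold changes of 0.25 and 0.21 and 95% intervals from -0.44 to 0.95 and from -0.48 to 0.90. The other 9 cytosolic synthetases had log2 fold changes from -0.27 (rars) to 0.37 (vars) at 6 dpa and from -0.24 (hars) to 0.48 (vars) at 9 dpa, and none met the criteria.

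Of the 7 mitochondrial synthetases tested, sars2 rose between 6 and 0 dpa, where 7.86% of all genes rose, and none met the criteria in the other comparisons. The median log2 fold changes were 0.27, 0.37 and 0.07, and the last became -0.08 after rescaling without haemoglobin genes. Sars2, the serine enzyme, had 3.72 and 2.50 FPKM at 0 dpa, then 5.60 and 5.41 at 6 dpa, then 4.72 and 5.65 at 9 dpa. The later libraries were above 0 dpa, whose replicates differed more from each other than those of 6 dpa. The mean rose 1.77-fold by 6 dpa (log2 fold change 0.68, SE 0.29, limma adjusted p = 0.321), and at 9 dpa the log2 fold change was 0.60 (adjusted p = 0.46). The call was kept without 0 dpa replicate 1 (0.90) and lost without any of the other 5 libraries, with 0.46 without 0 dpa replicate 2.

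Rars2, the arginine enzyme, had 2.67 and 2.25 FPKM at 0 dpa, then 3.08 and 4.03 at 6 dpa, then 3.52 and 4.72 at 9 dpa, without overlap to 0 dpa (log2 fold changes 0.39 and 0.56, limma adjusted p = 0.61 and 0.552). Iars2 had 16.2 and 12.7 FPKM at 0 dpa, then 13.1 and 13.3 at 6 dpa, then 14.1 and 14.9 at 9 dpa. Expressed as log2 fold changes these were -0.11 and 0.01, with 95% intervals from -0.66 to 0.44 and from -0.54 to 0.56. The other 4 tested (lars2, nars2, vars2 and wars2) had log2 fold changes from -0.21 to 0.36 at 6 dpa and from -0.07 to 0.37 at 9 dpa.

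For 6 amino acids both the cytosolic and the mitochondrial enzyme were among the members, and the ratio of their FPKM within a library does not depend on how libraries are scaled. For serine the ratio of sars to sars2 was 13.7 and 16.7 at 0 dpa, then 7.23 and 4.28 at 6 dpa, then 8.06 and 4.54 at 9 dpa. For tyrosine the ratio of yars to yars2 was 10.0 and 7.10 at 0 dpa, then 4.16 and 3.75 at 6 dpa, then 3.52 and 2.89 at 9 dpa. For arginine the ratio of rars to rars2 was 7.12 and 8.24, then 6.03 and 3.14, then 5.03 and 3.08. In these pairs the cytosolic enzyme was further above the mitochondrial one at 0 dpa than at any later library.

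The ratio of wars to wars2, the tryptophan enzymes, was 3.05 and 2.50 at 0 dpa, then 0.689 and 2.31 at 6 dpa, then 1.12 and 1.49 at 9 dpa. For isoleucine the ratio of iars to iars2 moved the other way, with 1.23 and 1.33 at 0 dpa, then 1.75 and 1.44 at 6 dpa, then 2.27 and 1.75 at 9 dpa. For valine the ratio of vars to vars2 overlapped between the time points, with 3.61 and 3.11, then 3.05 and 3.36, then 2.82 and 4.24. The symbol vars2 is also listed by RefSeq as a synonym of vars1, so which gene its row holds is less certain than for the others. Among the pairs of members, 4 of 6 ratios were lower at 6 dpa, by 1.76- to 2.72-fold as geometric means, and the same number at 9 dpa, by 1.94- to 2.65-fold, without overlap with 0 dpa, and 1 of 6 was higher. Both counts rest on the same 0 dpa libraries. For single levels, 45.7% of all genes did not overlap between 6 and 0 dpa and 41.1% between 9 and 0 dpa, and no such share was computed for ratios. An exact permutation test of 2 libraries against 2 cannot give a p-value below 0.333, so the ratios are given without a test. The yars2 values behind the tyrosine ratio are below the minimum FPKM of 3 in all but 1 library. Rars2 and vars2 were also below 3 FPKM in both libraries of 0 dpa, and sars2 was in 0 dpa replicate 2. Wars2 was below it in 0 dpa replicate 1 and in 6 dpa replicate 2. All of the lower ratios thus have low mitochondrial values behind them, and only iars2 stayed above 3 FPKM in every library.

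Phenylalanine and proline also had both enzymes in the table, with mitochondrial enzymes that are not members, and these pairs were added after their values were seen. The cytosolic phenylalanine enzyme is built of the subunits farsa and farsb. The ratio of farsa to fars2 was 3.97 and 4.37 at 0 dpa, then 4.35 and 3.04 at 6 dpa, then 5.19 and 2.88 at 9 dpa, and overlapped. The ratio of farsb to fars2 was 3.12 and 2.96, then 2.05 and 1.53, then 2.58 and 1.63, lower at both later times without overlap. For eprs, which charges glutamate and proline, the ratio to pars2 was 7.54 and 4.61, then 9.86 and 4.69, then 10.96 and 7.20, and overlapped. Pars2 was below 3 FPKM in every library.

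**Figure D4:**
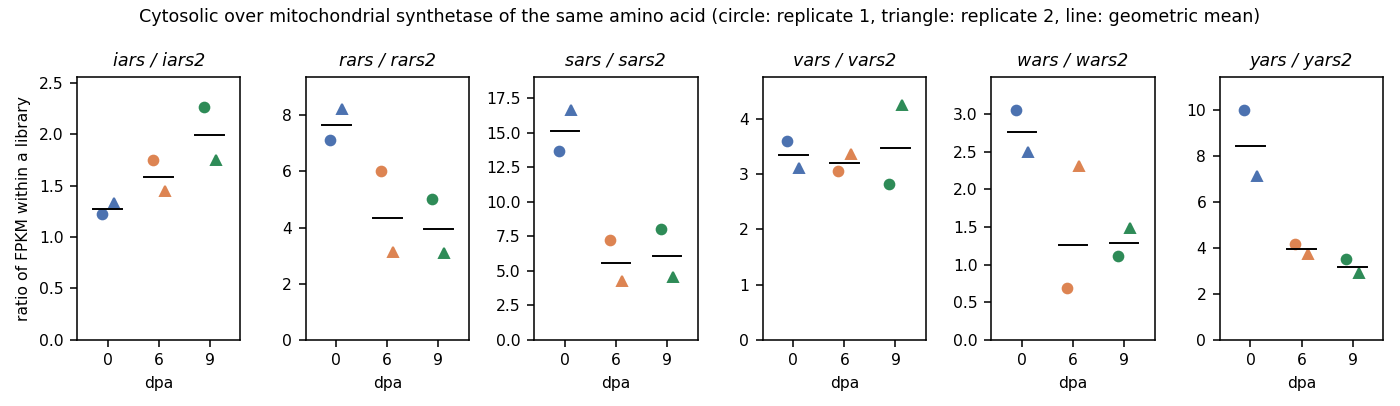
Ratio of the FPKM of the cytosolic to that of the mitochondrial synthetase within each library for 6 amino acids, at 0, 6 and 9 dpa (circles, replicate 1; triangles, replicate 2; line, geometric mean of 2; linear axes from 0). The ratios for arginine, serine, tryptophan and tyrosine are highest in the 2 libraries of 0 dpa, that for isoleucine is lowest there and that for valine overlaps.

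The replicates of a time point differed for many synthetases in the same direction. At 6 dpa, 15 of 17 cytosolic synthetases were higher in replicate 1 (88.2%, against 63.8% of all genes in the fit), with a median log2 difference of 0.37. At 9 dpa 16 of 17 were higher in replicate 1 (94.1%, against 65.9%), and at 0 dpa 11 of 17 were (64.7%, against 66.9%). Of 16 proliferation markers, 16 were higher in replicate 1 at 6 dpa, with a median log2 difference of 1.23, and 4 were at 9 dpa and 1 at 0 dpa. Of 12 epicardial and fibroblast markers 11 were higher in replicate 1 at 6 dpa and 0 at 9 dpa, and of 9 cardiomyocyte markers 7 were at 6 dpa and 9 at 9 dpa. The largest median differences among the marker lists were negative, but each was limited to 1 time point. Of 9 epidermal markers 2 were higher in replicate 1 at 6 dpa, with a median log2 difference of -3.08. On days 0 and 9 these counts were 8 and 5. Of 12 macrophage and neutrophil markers 0 were higher in replicate 1 at 0 dpa, with a median of -2.38. Later they leaned the same way as the cytosolic synthetases. Replicate 1 was higher for 11 of the 12 on day 6 (91.7%, median 0.43) and for 10 on day 9 (83.3%, median 0.28). Of 13 red blood cell markers all 13 were higher in replicate 1 on day 0, and on days 6 and 9 these counts were 5 and 11. The part of these cells in the values of the synthetases was not tested.

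The tissue carried its defining markers. The 9 cardiomyocyte genes in the table summed to 93564 and 48447 FPKM at 0 dpa, then 48100.5 and 40022 at 6 dpa, then 68243 and 50521 at 9 dpa. None of the 9 was at 0, and 2 of them (myl7 and nppb) met the criteria as a fall at 6 dpa and 0 at 9 dpa. All 9 had a negative log2 fold change from 0 dpa at both times, with medians of -0.59 and -0.32. The medians of all genes tested were -0.0028 and -0.03. Proliferation markers summed to 93.0 and 207 FPKM at 0 dpa, then 472 and 201 at 6 dpa, then 250 and 279 at 9 dpa, and 7 and 3 of 16 rose from 0 dpa. Epicardial and fibroblast markers summed to 591 and 663, then 2719 and 1358, then 1390 and 2339 FPKM, and 9 and 7 of 12 rose. Macrophage and neutrophil markers summed to 262 and 1759 FPKM at 0 dpa, then 855 and 737 at 6 dpa, then 432 and 376 at 9 dpa, so that the 0 dpa libraries stood furthest apart, and endothelial markers fell in 5 of 11 genes at 6 dpa. Of 7 skeletal muscle markers tested 5 rose at 6 dpa, and of 9 epidermal markers tested 2 did. Over the 6 libraries the skeletal muscle markers summed to 1326 to 3671 FPKM and the epidermal markers to 1568 to 2659 FPKM. Liver markers summed to 47.1 to 511 FPKM. Of 13 genes of the exocrine pancreas, 5 were at 0 in every library and the sum was 11.6 to 293 FPKM. Over all genes tested, 7.86% rose and 7.51% fell at 6 dpa, and 6.82% rose and 5.72% fell at 9 dpa. Bulk RNA cannot tell fewer cells of a type from less RNA per cell, and the part of these markers in the results was not tested.

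Kinases and phosphatases of eIF2alpha, ATF factors and related stress genes were read from a list of 21 genes, 15 of them in the table. The list mixes regulators of the pathway with stress-induced genes. The gene of GCN2, eif2ak4, is not among the 15, so its level is not given. Between 6 and 0 dpa 4 of 14 tested rose and 0 fell, where 7.86% of all genes rose and 7.51% fell. Between 9 and 0 dpa 4 of 13 rose, where 6.82% of all genes did. The 4 that rose were atf5a, eif2ak1, nupr1a and nupr1b at both times. The ATF4 genes did not pass. Atf4a had 215 and 179 FPKM at 0 dpa, then 232 and 212 at 6 dpa, then 231 and 186 at 9 dpa, giving log2 fold changes of 0.18 and 0.08 (limma adjusted p = 0.804 and 0.945). Atf4b had 241 and 147, then 139 and 119, then 163 and 122 FPKM, with log2 fold changes of -0.55 and -0.42 (adjusted p = 0.49 and 0.687). ATF4 is controlled mainly at translation, which mRNA levels do not show.

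Atf5a, a related factor also controlled at translation in mammals, had 11.7 and 3.55 FPKM at 0 dpa, then 38.4 and 29.2 at 6 dpa, then 35.1 and 21.0 at 9 dpa. All later libraries were above 0 dpa, where the replicates differed widely. The log2 fold changes were 2.18 (limma adjusted p = 0.0917, from 0.0431 to 0.437 over the other settings) and 1.89 (adjusted p = 0.197, from 0.0383 to 0.61), and the calls were kept with any library left out, at 1.45 to 2.92 and 1.15 to 2.63, the lower ends being without 0 dpa replicate 2. Eif2ak1, the haem-regulated eIF2alpha kinase of red blood cells, had 9.47 and 5.46 FPKM at 0 dpa, then 15.7 and 13.7 at 6 dpa, then 14.0 and 11.5 at 9 dpa. Expressed as log2 fold changes these were 0.93 (adjusted p = 0.194) and 0.74 (adjusted p = 0.367). The call at 6 dpa was lost without 0 dpa replicate 2 (0.58) or 6 dpa replicate 1 (0.84), and that at 9 dpa was kept only without 0 dpa replicate 1 (1.08) and was lowest without 0 dpa replicate 2 (0.39). Of the 13 red blood cell markers, 8 rose and 2 fell at 6 dpa (7.86% and 7.51% of all genes), and 6 rose and 1 fell at 9 dpa (6.82% and 5.72%). The summed level of these markers was 119058 and 71977 FPKM at 0 dpa, then 28062 and 26405 at 6 dpa, then 112793 and 90208 at 9 dpa. Their log2 fold changes reached down to -15.6 at 6 dpa and -14.4 at 9 dpa, and that of hbaa1 was 16.2 between 9 and 6 dpa. On the scale of FPKM + 1 such values put a gene near 0 FPKM at a time point. The sum can therefore turn on single genes. Whether these values are changes of expression or of how reads were assigned to genes was not tested. The part of these markers in the result was not tested either.

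Nupr1a and nupr1b encode small stress-induced nuclear proteins. Nupr1b had 9.64 and 14.6 FPKM at 0 dpa, then 39.7 and 29.5 at 6 dpa, then 20.6 and 42.2 at 9 dpa, giving log2 fold changes of 1.45 and 1.24 (limma adjusted p = 0.137 and 0.274). The call at 6 dpa was lost without 6 dpa replicate 1 (1.24), and that at 9 dpa without 0 dpa replicate 1 (0.97) or 9 dpa replicate 2 (0.74). Nupr1a, more abundant, had 124 and 99.3, then 183 and 170, then 202 and 207 FPKM, with log2 fold changes of 0.66 and 0.88 (adjusted p = 0.321 and 0.283). Its call at 6 dpa was kept only without 0 dpa replicate 1 (0.82), and that at 9 dpa was lost without either library of 9 dpa.

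Amino acid transporters of the response were on a list of 16, with 10 in the table. Between 6 and 0 dpa 1 of 8 tested rose (slc38a9) and 3 fell (slc38a2, slc3a2b and slc43a1a). Over all genes tested 7.86% rose and 7.51% fell. Slc38a2, the ATF4-regulated carrier of small neutral amino acids, had 144 and 102 FPKM at 0 dpa, then 57.5 and 33.1 at 6 dpa, then 78.1 and 61.5 at 9 dpa. The libraries of 6 dpa were the lowest and those of 0 dpa the highest. Its log2 fold change was -1.46 at 6 dpa (limma adjusted p = 0.117) and kept its call with any library left out (-1.84 to -1.07), and it was -0.80 at 9 dpa (adjusted p = 0.429). Slc3a2b, a heavy chain shared by several transporters, had 87.7 and 68.5, then 40.0 and 42.1, then 113 and 63.5 FPKM. It fell by 0.90 on the log2 scale at 6 dpa (adjusted p = 0.274) and rose by 1.03 between 6 and 9 dpa (adjusted p = 1). Both calls were lost without either library of 6 dpa, the first also without 0 dpa replicate 1 (-0.72) and the other without 9 dpa replicate 1 (0.62). Slc38a9, the lysosomal arginine sensor, had 4.16 and 3.80 FPKM at 0 dpa, then 6.36 and 6.87 at 6 dpa, then 7.67 and 8.07 at 9 dpa (log2 fold changes 0.61 and 0.83, adjusted p = 0.284 and 0.236), and its call at 6 dpa was kept only without 0 dpa replicate 1 (0.66) and that at 9 dpa was lost without 9 dpa replicate 2 (0.80). Slc43a1a, a carrier of large neutral amino acids, had 21.5 and 27.3, then 16.0 and 8.95, then 19.7 and 12.8 FPKM, and its log2 fold change of -0.95 at 6 dpa (adjusted p = 0.25) was not called without 0 dpa replicate 2 (-0.79) or without 6 dpa replicate 2 (-0.57).

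Other serine, one-carbon, proline and stress targets were on a list of 29, with 24 in the table. Between 6 and 0 dpa 3 of 17 tested rose (shmt1, mthfd1b and pycr1b) and 2 fell (gpt2 and ddit4), and between 9 and 0 dpa 2 rose (pycr1b and sesn3). Over all genes tested 7.86% rose and 7.51% fell at 6 dpa, and 6.82% rose at 9 dpa. Shmt1, the cytosolic counterpart of shmt2, had 4.13 and 6.74 FPKM at 0 dpa, then 20.9 and 7.85 at 6 dpa, then 9.51 and 9.93 at 9 dpa. A single library, 6 dpa replicate 1, stood far above the rest, and without it the log2 fold change at 6 dpa went from 1.14 to 0.49 and was not called, nor was it without 0 dpa replicate 1 (0.85). Pycr1b, an enzyme of proline synthesis, had 9.85 and 10.4 FPKM at 0 dpa, then 18.1 and 18.3 at 6 dpa, then 16.3 and 15.9 at 9 dpa. Its replicates were close at each time, and its log2 fold changes were 0.79 and 0.62 (limma adjusted p = 0.157 and 0.321). The call at 6 dpa was lost without 6 dpa replicate 1 or 2 (0.80 and 0.78), and that at 9 dpa without any library of 6 or 9 dpa (0.60 to 0.64).

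Mthfd1b, a folate enzyme of the one-carbon pool, had 5.60 and 5.06 FPKM at 0 dpa, then 9.77 and 8.61 at 6 dpa, then 11.6 and 6.89 at 9 dpa (log2 fold change at 6 dpa 0.69, limma adjusted p = 0.312), and its call was lost without any library of 0 or 6 dpa. Gpt2, an alanine aminotransferase, had 21.2 and 10.8, then 7.40 and 7.05, then 13.8 and 11.9 FPKM (log2 fold change at 6 dpa -0.98, adjusted p = 0.215). Its call was lost without 0 dpa replicate 1, the highest library, where the value was -0.52, and without either library of 6 dpa. Sesn3, a sestrin like sesn2, had 20.9 and 21.0, then 35.5 and 26.2, then 34.2 and 31.2 FPKM, and its call at 9 dpa (log2 fold change 0.62, adjusted p = 0.4) was lost without any 1 of the 6 libraries.

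Ddit4, a stress-induced inhibitor of mTORC1, had 59.8 and 52.0 FPKM at 0 dpa, then 9.39 and 33.9 at 6 dpa, then 90.5 and 47.3 at 9 dpa. As for chac1 and trib3, 6 dpa replicate 1 was the lowest library and 9 dpa replicate 1 was above 9 dpa replicate 2. It fell by 1.58 on the log2 scale at 6 dpa (limma adjusted p = 0.249) and rose by 1.80 between 6 and 9 dpa (adjusted p = 1). Without 6 dpa replicate 1 these were -0.70 and 0.93 and neither was called. The first was also lost without 0 dpa replicate 1 (-1.48) or 0 dpa replicate 2 (-1.67), and the other without 9 dpa replicate 1 (1.34).

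The remaining lists bore on tRNA charging and on the endoplasmic reticulum. Of 6 tested genes for other mitochondrial charging enzymes and helpers, 0 met the criteria at 6 dpa and 2 rose at 9 dpa (fars2 and gatc). Of 4 tested scaffolds and relatives of the synthetase complex, 0 met them in any comparison. Fars2, the mitochondrial phenylalanine enzyme, had 7.32 and 7.20, then 8.83 and 11.4, then 10.2 and 14.0 FPKM, and gatc, a subunit of the amidotransferase that completes glutamine charging in mitochondria, had 29.3 and 27.6, then 37.5 and 39.2, then 47.4 and 41.4 FPKM. Their log2 fold changes at 9 dpa were 0.65 and 0.62 (limma adjusted p = 0.366 and 0.375), and each call was kept with only 1 of the 6 libraries left out. Of 15 genes for sensors and chaperones of endoplasmic reticulum stress, which reaches eIF2alpha through a different kinase, 2 rose and 2 fell at 6 dpa (hsp90b1 and pdia4 against xbp1 and atf6b), and 2 rose and 1 fell at 9 dpa. Over all genes tested 7.86% rose and 7.51% fell at 6 dpa, and 6.82% rose and 5.72% fell at 9 dpa.

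Pdia4, a protein disulphide isomerase, had 9.40 and 10.7 FPKM at 0 dpa, then 29.2 and 23.6 at 6 dpa, then 26.3 and 24.9 at 9 dpa (log2 fold changes 1.3 and 1.27, limma adjusted p = 0.0671 and 0.112). Hsp90b1, a chaperone of the same compartment, had 31.4 and 26.5, then 91.6 and 55.0, then 80.3 and 69.7 FPKM (1.27 and 1.34, adjusted p = 0.121 and 0.176). For both genes the later libraries were above those of 0 dpa, and the calls were kept with any library left out. Xbp1, a transcription factor of the endoplasmic reticulum stress response, had 227 and 173, then 101 and 119, then 150 and 137 FPKM (log2 fold change at 6 dpa -0.85, adjusted p = 0.241), and its call was lost without any library of 6 or 9 dpa. Atf6b, a membrane-bound factor of the same response, had 22.7 and 21.4, then 12.5 and 14.6, then 15.6 and 12.7 FPKM (-0.67 and -0.61, adjusted p = 0.252 and 0.365). Its call at 6 dpa was lost without 0 dpa replicate 1 or either library of 6 dpa, and that at 9 dpa was kept only without 0 dpa replicate 2.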

How the data were processed

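RNA-seq data were the 6 heart libraries. The authors aligned reads to danRer10 with STAR and made the deposited FPKM values with Cufflinks (the labels list Cuffdiff); versions and annotation are not given in the sources used here. The values were used as deposited. FPKM carries no counts, so the depth behind a value is unknown. Precision comes from 2 libraries a time point, pooled over the 3 time points, and from a prior drawn from all genes in the fit. P values measure the spread between these libraries as moderated by that prior. The 6 ChIP-seq and 6 PAC2 samples are not analysed here.

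Limma 3.58.1 (R 4.3.3) was fitted to log2(FPKM + 1) on time point alone, with a trended prior (3 residual and 4.66 prior degrees of freedom), over 9363 genes with a mean FPKM of at least 3 at 1 or more time points. Fold changes on this scale understate low genes. Limma took the place of the authors' edgeR, which models counts. P-values were adjusted over all 9363 genes. The procedure was tested on simulated data. Alternatives were a pseudocount of 0.1, no minimum or a minimum of 1, median-ratio scaling, rescaling without haemoglobin genes, the compared groups only, a replicate block, no trend and each library left out.

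Members and lists were chosen with earlier results of these data known. Genes given one by one are members that met the 3 criteria or did not overlap at 1.5-fold, the highest of each group and the 5 stress targets asns, ddit3, chac1, trib3 and sesn2. Of other pathway genes, those called and atf4a and atf4b are given. Mthfd2, sars, farsb and the ratios to fars2 and pars2 were added after their values were seen. Python 3.11.15 with pandas 2.3.3 and matplotlib 3.10.9 made summaries and figures. Of the members, 21 matched a RefSeq symbol and 14 a RefSeq synonym.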

Additional observations from a re-analysis of the deposited data

How the results depend on the processing

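The main limit is 2 libraries a time point, and where a library is left out, the lone library of its group is assumed to vary like the others. No member passed the adjusted p-value under any of the 14 alternatives. The count of members called between 6 and 0 dpa was 6, where 15.4% of all genes tested were called. It was 3 in a fit of the compared groups only, where 12.4% were and the spread comes from 4 libraries. With each library left out in turn the count was lower, and the share of all genes called also moved. Between 9 and 0 dpa the count of 5, against 12.5% of all genes tested, was 10 after rescaling without haemoglobin genes, against 15.2%. Under that rescaling the all-gene median is 0.31 (6 against 0 dpa), 0.13 (9 against 0 dpa) and -0.17 (9 against 6 dpa). With each library left out the count for 9 against 0 dpa did not rise, and the share of all genes called also moved. Without 9 dpa replicate 1 yars was called as a decrease. Between 9 and 6 dpa the count of 1, against 3.41% of all genes tested, was 0 without the FPKM filter (3.1%) and 0 with the replicate block (3.85%). With each library left out this count did not rise, and the share of all genes called moved here too. The causes were not tested.

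After the same rescaling the median log2 fold change of cytosolic synthetases at 6 dpa was 0.20 in place of -0.12, still below that of all genes. Those of mitochondrial synthetases were 0.57 at 6 dpa, 0.49 at 9 dpa and -0.076 between 9 and 6 dpa, and that of amino acid response genes at 6 dpa was 0.44. Leaving out each library in turn, the cytosolic medians ranged from -0.22 to 0.19 at 6 dpa, from -0.12 to 0.24 at 9 dpa and from -0.11 to 0.25 between 9 and 6 dpa. The mitochondrial medians ranged from 0.21 to 0.35, from 0.13 to 0.42 and from -0.11 to 0.15, and those of amino acid response genes from 0.12 to 0.39, from 0.33 to 0.68 and from 0.06 to 0.42. The medians of all genes tested moved as well, from -0.11 to 0.08, from -0.14 to 0.09 and from -0.09 to 0.07.

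Values under the alternatives were compared for members called in a comparison or without overlap at 1.5-fold, together with other pathway genes that were called. Only members could therefore gain a call. Of these values 157 lost their call, 14 gained a call, 557 stayed on their side of the threshold and 0 changed sign. The 0 follows largely from the selection, since leaving out 1 library cannot change the sign between groups that do not overlap. Several other settings leave the log2 fold change as it was. Outside this selection, the log2 fold change between 6 and 0 dpa changed sign under some settings for many members. These were asns, farsb, cars, dars, eprs, hars, iars2, mars, psph, qars, rars and wars2. Whether the replicate numbers pair the libraries is not known. Same-numbered libraries deviated from their group means with correlations of -0.08, 0.09 and 0.01 across genes. Such correlations do not register a shift shared by all genes, so they cannot decide this. Replicate 1 was the higher library for 66.9%, 63.8% and 65.9% of all genes in the fit at 0, 6 and 9 dpa. With the replicate block the counts of members called were 6, 7 and 0, against 16.5%, 13.5% and 3.85% of all genes tested.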
